A study of Mus musculus with 12 samples.

Results

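The transcripts of 10 genes of the DNA damage response were read on expression arrays from a mouse alpha cell line and a mouse beta cell line. The genes are the checkpoint kinase genes Atr, Atm, Chek1 and Chek2, the nucleotide excision repair genes Xpc, Ddb2 and Ercc5, the translesion polymerase gene Polk, the ribonucleotide reductase gene Rrm2b and the growth arrest gene Gadd45a. They were chosen by name, and all of their probe sets on the array were taken, 15 of 22690. Chek1 has 4 probe sets, Polk and Ddb2 have 2 each, and the other 7 genes have 1, so probe sets of 1 gene are not independent readings of different genes.

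The alpha line aTC1 and the beta line bTC3 were kept for 5 days in 3.3 µM GW8510, annotated as an inhibitor of the cyclin-dependent kinase CDK2, or in the vehicle DMSO, and each of the 4 groups holds 3 arrays labelled as biological replicates. The compound was itself given in 0.1% DMSO, so all groups carried the vehicle. The study reports toxicities at the dose used for these arrays and turned to a lower dose for its further work. The part of toxicity in the present results was not tested. Titles and compound labels name GW8510 for all treated samples, but the source names of replicates 2 and 3 in both lines end in other numbers. The growth text of the bTC3 samples is that of aTC1, and the labels name no clone of aTC1. Both lines are established tumour lines from transgenic mice, in which large T antigen, which binds p53 and the retinoblastoma proteins, was driven by the glucagon promoter in the alpha cells and by the insulin promoter in the beta cells. The question put to the arrays was which transcripts the compound changed in each line. The values are array intensities on a linear scale, limited at 20 and 20000, and compared here on the log2 scale with limma. A gene is said to have risen or fallen where the p-value of limma, adjusted by Benjamini-Hochberg over all 22175 probe sets tested, was under 0.05. Intensities of different probe sets were not set against each other.

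ATR and ATM are large kinases that sense DNA damage, ATR mainly single-stranded DNA at stalled replication forks and ATM mainly double-strand breaks. They phosphorylate the effector kinases CHK1 and CHK2, which hold the cell cycle, and p53, whose targets include cell cycle inhibitors and several repair genes. Nucleotide excision repair finds bulky lesions through XPC and the DDB complex, opens the DNA and cuts out the damaged stretch, and translesion polymerases copy past lesions that were left in place. Much of this signalling runs through phosphorylation of the proteins, which transcript arrays do not measure.

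Median intensities of the arrays were 174 to 182, apart from beta GW8510 replicate 3 at 199.9, and the lowest correlation between arrays of a group was 0.994. Glucagon (Gcg) stood at the upper limit on all alpha arrays and between 5997 and 12890 on the beta arrays, so it did not separate the lines fully. Ttr, another alpha cell gene, read 7864 to 8884 in alpha cells with DMSO, 19667 to 20000 with GW8510, and 20000 on all beta arrays. The alpha cell gene Irx2 read 1322 to 1913 on alpha arrays and 252 to 320 on beta arrays. The beta cell glucose transporter Slc2a2 read 82.3 to 91.6 in beta cells with DMSO and 2876 to 3242 with GW8510. Pdx1, a beta cell gene, read 65.4 to 74.0 in alpha cells with DMSO, 355 to 398 with GW8510, and 2779 to 3403 on beta arrays. Nkx6-1, also a beta cell gene, read 362 to 446 on alpha arrays and 763 to 1106 on beta arrays. Ins2 and Iapp stood at the upper limit in beta cells, with Ins2 at 95.2 to 182 in alpha cells. Iapp read 131 to 148 in alpha cells with DMSO and 350 to 429 with GW8510. The acinar marker Cela1 read 428 to 447 in alpha cells with DMSO, 608 to 678 with GW8510, and at most 134 in beta cells. Cpa1, Krt19 and Sox9, of the same list of acinar and duct markers, read at most 75.2, 84.8 and 113 anywhere. The somatostatin gene Sst, a delta cell marker, read at 17084 or above in beta cells and at most 77.3 in alpha cells, and the pan-leukocyte marker Ptprc read at most 23.7 anywhere. Of the same list of blood and endothelial markers, the macrophage marker Cd68 read 55.9 to 66.8 in alpha cells with DMSO and 612 to 698 with GW8510, and at most 50.5 in beta cells, while the endothelial markers Pecam1 and Cdh5 read at most 53.1 and 41.7. The part of these markers in the results was not tested. In cell line RNA as a whole, a lower value does not tell fewer cells that express a gene from less RNA in each cell.

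In alpha cells, GW8510 raised Polk, Ercc5, Chek2 and Xpc and lowered Atr, Gadd45a, Chek1 and Ddb2. In beta cells Chek2 rose, Atr and Atm fell, and no other of the 10 genes passed the test. By probe set, 5 of 15 were higher and 6 lower in alpha cells, where 18.3% and 20.2% of all probe sets were called in those directions and 38.4% in either. In beta cells 1 of 15 was higher and 2 lower, against 18.0% and 13.4% of all probe sets and 31.5% in either direction. The response itself differed between the lines for 7 of 15 probe sets, 4 with the beta response higher and 3 with it lower, against 14.8% and 10.5% of all probe sets and 25.3% in either direction. Treated and untreated arrays did not overlap for 12 of 15 probe sets in alpha cells and 3 of 15 in beta cells, against 49.1% and 43.6% of all probe sets.

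**Figure D1:**
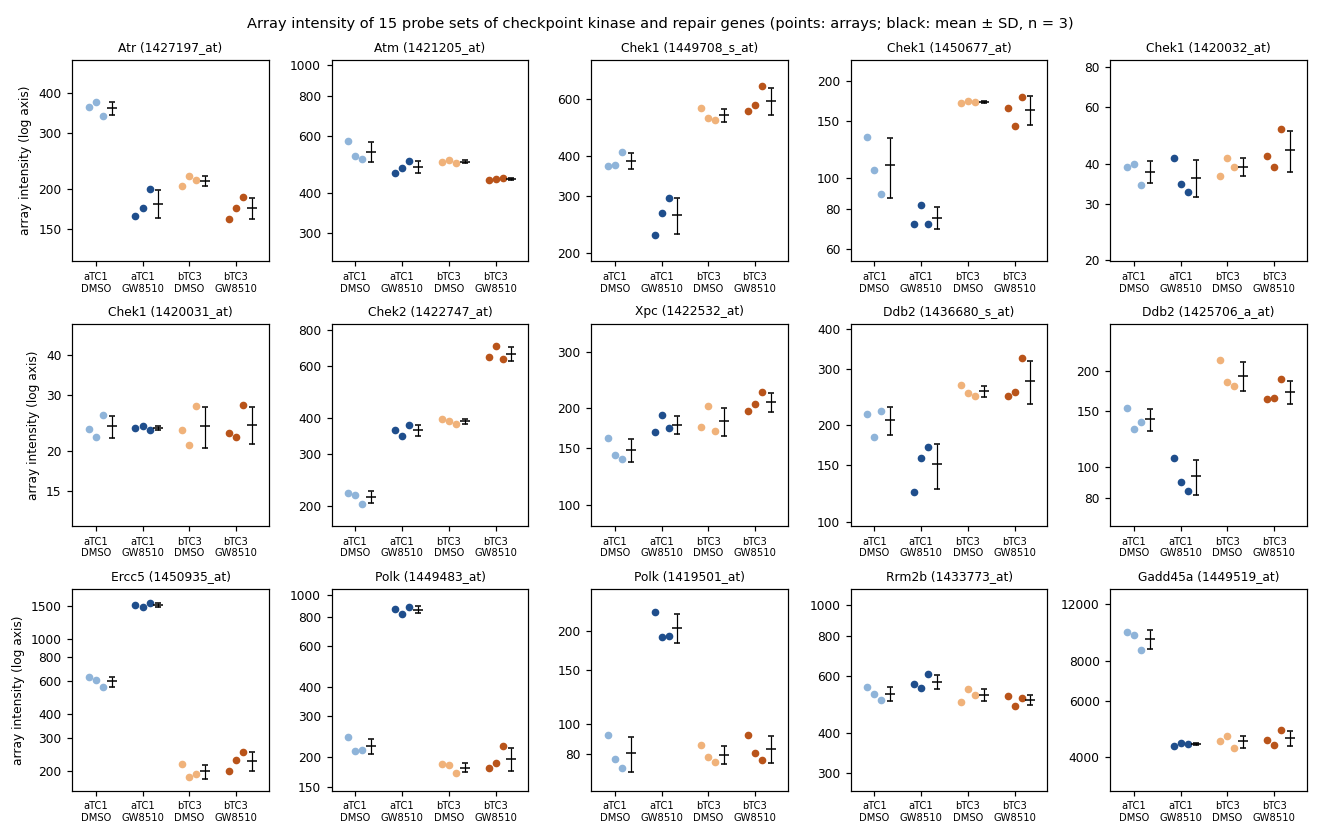
Array intensity (log axis) of each of the 15 probe sets in the aTC1 alpha cells and bTC3 beta cells, untreated (DMSO) or treated (GW8510), with 1 point per array and the mean ± SD of 3 arrays in black. The alpha GW8510 arrays lie above all others for Ercc5 and both Polk probe sets, and the alpha DMSO arrays lie above all others for Atr, Atm and Gadd45a.

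Atr, the apical kinase of the replication stress response, had its highest level in untreated alpha cells. The alpha DMSO arrays read 360.2, 372 and 338 and the alpha GW8510 arrays 165, 175 and 201. The beta DMSO arrays read 205, 220.5 and 213 and the beta GW8510 arrays 162, 174 and 189. The treated arrays lay below the untreated ones in both lines without overlap. Atr fell to 0.504-fold in alpha cells, from 357 ± 17.2 to 180.4 ± 18.3 (mean ± SD, n = 3; log2 change -0.99 with SE 0.08, limma adjusted p = 1.51e-06). The fall in beta cells was smaller, to 0.821-fold (log2 fold change -0.28, 95% interval -0.46 to -0.11, adjusted p = 0.0188 from limma), and the responses differed by 0.70 on the log2 scale (adjusted p = 8.02e-04 from limma). The call in beta cells ended without beta DMSO replicate 2 (adjusted p = 0.0696) or beta GW8510 replicate 1 (0.0755), within 0.00194 to 0.0755 over all settings. In order of level, beta cells with GW8510 and alpha cells with GW8510 overlapped and did not pass the test (adjusted p = 0.705), beta cells with DMSO were above them (0.0213 against alpha GW8510), and alpha cells with DMSO were highest (6.28e-06 against beta DMSO).

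The Atr window is shown because its transcript moved in both lines. It covers 250 bases before and 50 after the RefSeq start site, on the plus strand at chr9:95857347-95857646 of GRCm38.p6. Promoter windows of this kind were found for 7 of the 10 genes, and Ddb2, Xpc and Rrm2b had no entry. In each window the letters searched, on both strands, were GCGGGAA, the core of an E2F site, and ATGCAAAT, the octamer. The box CCAAT, the GC box with the letters GGGCGG, and the p53 half-site, by its name, were searched too. They were chosen after the windows had been seen. Capitals mark the GC box letters, which occur in 35.7% of all 32851 promoter windows, and Atr holds 2.
Atr: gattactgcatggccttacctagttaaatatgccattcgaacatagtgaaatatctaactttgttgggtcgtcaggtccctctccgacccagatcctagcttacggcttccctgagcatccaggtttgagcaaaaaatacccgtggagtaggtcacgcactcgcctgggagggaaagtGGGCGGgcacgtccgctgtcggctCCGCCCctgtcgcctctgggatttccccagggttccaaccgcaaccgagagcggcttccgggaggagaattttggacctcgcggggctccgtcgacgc
The study's list of RT-PCR primers holds a pair for Atr, given here to identify the transcript, while its text reports no RT-PCR value for Atr.
Atr forward primer: gaaagaggctcctaccaacgag
Atr reverse primer: caactgtcacctggagacttgc

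Atm, the apical kinase of the double-strand break response, changed little in either line. In alpha cells the DMSO arrays read 580.2, 521 and 509.5 and the alpha GW8510 arrays 462, 477 and 503. In beta cells the DMSO arrays read 498, 507 and 495 and the beta GW8510 arrays 438, 443 and 445. The groups did not overlap in either line, yet the differences were small, 0.896-fold in alpha cells (adjusted p = 0.0519 from limma) and 0.884-fold in beta cells (adjusted p = 0.0375 from limma). The responses differed by -0.02 on the log2 scale (95% interval -0.20 to 0.16, adjusted p = 0.908 from limma). Both results depended on single arrays. In beta cells the call was lost on leaving out alpha DMSO replicate 2 (adjusted p = 0.0503), alpha GW8510 replicate 2 (0.0528), beta DMSO replicate 1 (0.0849), 2 (0.106) or 3 (0.0697), or beta GW8510 replicate 1 (0.0895), 2 (0.0756) or 3 (0.0524), within 0.0107 to 0.106 over all settings. In alpha cells Atm passed without alpha DMSO replicate 3 (0.0368), alpha GW8510 replicate 3 (0.0364) or beta GW8510 replicate 3 (0.046), within 0.00767 to 0.206. In the order of Atm levels no neighbouring groups passed the test (adjusted p = 0.106 for beta GW8510 and alpha GW8510, 0.414 for alpha GW8510 and beta DMSO, 0.178 for beta DMSO and alpha DMSO), although the arrays of the first and the last pair did not overlap.

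Chek1, the effector kinase below ATR, fell in alpha cells at its 2 brighter probe sets. At 1449708_s_at the alpha DMSO arrays read 372, 375 and 411 and the alpha GW8510 arrays 227, 265 and 295. Beta cells with DMSO read 563, 526 and 519 and the beta GW8510 arrays 551, 575 and 660.0. The alpha groups did not overlap and the beta groups did. The fall in alpha cells was to 0.677-fold (log2 change -0.56 with SE 0.10, limma adjusted p = 5.78e-04), the value in beta cells was 1.11-fold (95% interval of the log2 fold change -0.06 to 0.36, adjusted p = 0.283), and the responses differed (0.71 on the log2 scale, adjusted p = 0.00251). This probe set is of a design that can bind more than 1 related transcript.

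At the second Chek1 probe set, 1450677_at, the alpha means were 109 ± 23.0 with DMSO and 75.1 ± 5.95 with GW8510, again a fall (0.695-fold, adjusted p = 0.00627 from limma). The beta means were 172 ± 1.08 and 163 ± 16.8 (0.945-fold, adjusted p = 0.677). The difference of the responses, 0.44 on the log2 scale, did not pass (adjusted p = 0.102 from limma), and passed without alpha DMSO replicate 3 (0.0199), within 0.0199 to 0.206 over all settings. The last pair of Chek1 probe sets were dim and passed in no comparison. 1420032_at had group means of 36.2 to 44.2 and 1420031_at of 23.6 to 24.2, near the lower limit of 20, so they bear little on Chek1. The Chek1 promoter window holds the E2F core letters 44 bases after the start. The Atm window, not printed, also holds them, 16 bases after the start, with a CCAAT box and a GC box.

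Chek2, the effector kinase below ATM, rose by the same fold in both lines. Alpha cells with DMSO read 221, 218 and 202 and the alpha GW8510 arrays 362, 348 and 377. For beta cells the DMSO arrays were at 396, 391 and 381 and the beta GW8510 arrays 644, 702 and 636. Treated and untreated arrays did not overlap in either line. The rise was 1.70-fold in alpha cells (log2 change 0.76 with SE 0.06, limma adjusted p = 1.02e-06) and 1.70-fold in beta cells (adjusted p = 3.03e-06). The 95% interval of the difference between the responses was -0.18 to 0.18 on the log2 scale (adjusted p = 0.998 from limma). Beta cells held more Chek2 than alpha cells with DMSO (1.82-fold, adjusted p = 1.03e-07), and the difference between treated alpha cells and untreated beta cells did not pass (adjusted p = 0.153), although their arrays did not overlap.

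Chek2 is shown because it was the only one of the 10 genes called higher in both lines. Its window lies on the plus strand at chr5:110839733-110840032, with capitals for the E2F core letters 152 bases before the start and for CCAAT, read as ATTGG, at 186 and 26 bases before it. The E2F core letters occur in 4.60% of all promoter windows and CCAAT in 37.4%.
Chek2: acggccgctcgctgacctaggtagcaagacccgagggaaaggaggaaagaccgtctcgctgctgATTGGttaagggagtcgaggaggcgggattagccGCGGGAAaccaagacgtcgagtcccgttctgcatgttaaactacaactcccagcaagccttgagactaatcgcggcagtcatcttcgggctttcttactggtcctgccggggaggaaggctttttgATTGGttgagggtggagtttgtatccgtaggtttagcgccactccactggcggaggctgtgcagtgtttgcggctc

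**Figure D2:**
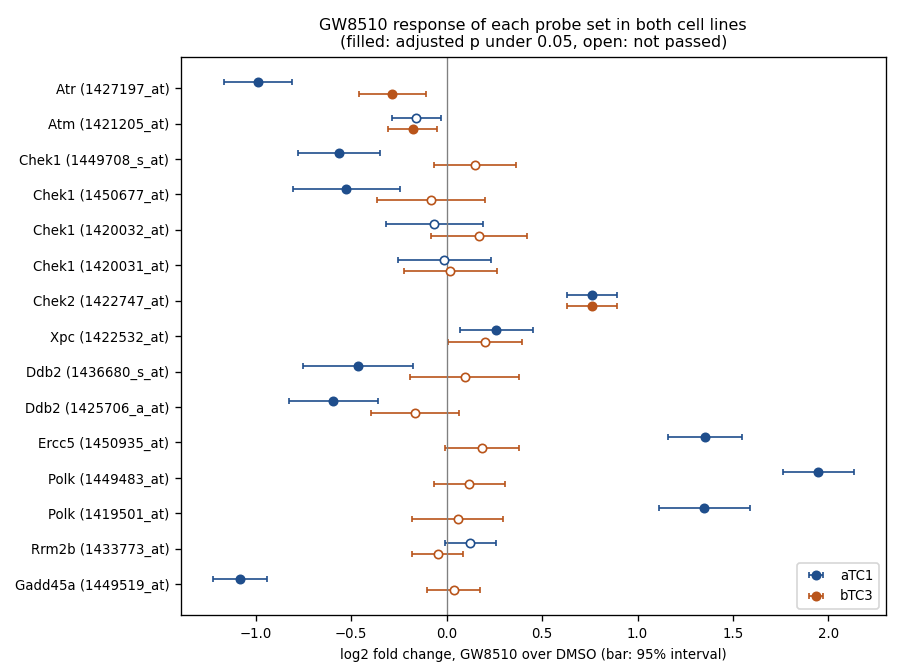
Log2 fold change of GW8510 over DMSO for each probe set in alpha cells (aTC1, blue) and beta cells (bTC3, orange), with 95% intervals and filled points at adjusted p under 0.05. Chek2 lies at 0.76 in both lines, whereas Polk, Ercc5 and Gadd45a are far from 0 in alpha cells and near it in beta cells.

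Of the damage recognition genes, Xpc, whose protein finds distorted DNA across the genome, rose slightly in alpha cells, whereas Ddb2, the lesion-binding subunit of the DDB complex, fell. The Xpc arrays read 162, 143 and 139 with DMSO and 168, 189.7 and 174 with GW8510 in alpha cells. In beta cells they read 174, 203 and 169 with DMSO and 195, 206 and 225 with GW8510. The alpha groups did not overlap, by a narrow gap, and the beta groups did. Xpc was 1.20-fold in alpha cells (log2 fold change 0.26, 95% interval 0.07 to 0.45, adjusted p = 0.0346 from limma) and 1.15-fold in beta cells (adjusted p = 0.111), with a difference of -0.06 between the responses (95% interval -0.33 to 0.21, adjusted p = 0.797). The alpha call was lost when alpha DMSO replicate 2 was left out (adjusted p = 0.105) and likewise for replicate 3 (0.123) and for alpha GW8510 replicate 2 (0.126) or 3 (0.058), within 5.16e-04 to 0.126 over all settings. In beta cells Xpc passed without beta DMSO replicate 2 (0.0392), within 0.0392 to 0.303.

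For Ddb2, the brighter probe set 1436680_s_at read 217, 183 and 221 with DMSO and 124, 158 and 170.5 with GW8510 in alpha cells. In beta cells it read 267, 252 and 247 with DMSO and 246, 254 and 323 with GW8510. The other probe set, 1425706_a_at, had means of 141 ± 11.3 and 93.8 ± 11.8 in alpha cells and of 193 ± 20.3 and 172 ± 14.3 in beta cells. At both, the alpha groups did not overlap and the beta groups did. Ddb2 fell in alpha cells to 0.725-fold (adjusted p = 0.0139 from limma) and 0.663-fold (adjusted p = 7.51e-04), and in beta cells it was 1.07-fold and 0.892-fold (adjusted p = 0.631 and 0.273). The responses differed at the first probe set (0.56 on the log2 scale, adjusted p = 0.0454 from limma) and not at the second (0.43, adjusted p = 0.0573). Like the brightest Chek1 probe set, the first is of a design that can bind other related transcripts too.

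Several of the Ddb2 calls depended on single arrays. The fall at 1436680_s_at was no longer called without alpha DMSO replicate 1 (adjusted p = 0.0521) or 3 (0.0546) or alpha GW8510 replicate 1 (0.0552), within 0.00202 to 0.0552. The difference at that probe set lost its call without alpha DMSO replicate 1 (0.0999) or 3 (0.102), alpha GW8510 replicate 1 (0.0798) or 2 (0.0581), beta DMSO replicate 1 (0.065), 2 (0.088) or 3 (0.0897), or beta GW8510 replicate 2 (0.0517) or 3 (0.0945), within 0.0217 to 0.102. The difference at 1425706_a_at passed without alpha GW8510 replicate 1 (0.0173) or beta DMSO replicate 1 (0.0305), within 0.00719 to 0.133.

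Ercc5 (XPG), the nuclease that cuts on one side of a lesion, had the largest difference between the untreated lines among the 15 probe sets, and rose in alpha cells. The alpha DMSO arrays read 628, 603 and 556 and the alpha GW8510 arrays 1522, 1488 and 1549. Beta DMSO values were 217, 186 and 191 and the beta GW8510 arrays 199, 229 and 251. All alpha arrays lay above all beta arrays, and the beta groups overlapped. Ercc5 rose 2.55-fold in alpha cells, from 596 ± 36.5 to 1520.0 ± 30.6 (log2 change 1.35 with SE 0.09, limma adjusted p = 2.56e-07). In beta cells it was 1.14-fold (95% interval of the log2 fold change -0.01 to 0.38, adjusted p = 0.141), and it passed without beta GW8510 replicate 1 (0.0311), within 0.0311 to 0.421. The responses differed by -1.17 on the log2 scale (adjusted p = 3.78e-05 from limma), and beta cells held 0.332 of the alpha level with DMSO (adjusted p = 1.66e-08). Its window, on the plus strand at chr1:44147494-44147793, has capitals for the E2F core letters 69 bases before the start and for CCAAT 195 bases before it.
Ercc5: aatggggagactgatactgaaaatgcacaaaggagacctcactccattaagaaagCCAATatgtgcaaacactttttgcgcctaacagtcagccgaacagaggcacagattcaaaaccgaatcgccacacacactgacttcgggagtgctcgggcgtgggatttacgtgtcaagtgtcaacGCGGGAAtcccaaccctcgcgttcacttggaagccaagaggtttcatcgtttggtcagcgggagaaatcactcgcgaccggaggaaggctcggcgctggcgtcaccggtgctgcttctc

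Polk, a translesion polymerase that extends past bulky adducts, had the largest change of the 15 probe sets. At 1449483_at the alpha DMSO arrays read 244, 214 and 215 and the alpha GW8510 arrays 872, 829 and 888. The beta DMSO arrays read 187, 185 and 171 and the beta GW8510 arrays 179.7, 189 and 224. At 1419501_at the alpha DMSO arrays read 92.4, 76.9 and 72.4 and the alpha GW8510 arrays 229.9, 191 and 194, with beta arrays between 75.2 and 92.1. At both probe sets the treated alpha arrays stood above every other array. Polk rose 3.85-fold (log2 change 1.95 with SE 0.08, limma adjusted p = 1.01e-08) and 2.55-fold (1.35 with SE 0.11, limma adjusted p = 1.32e-06) in alpha cells. In beta cells the values were 1.09-fold and 1.04-fold (95% intervals of the log2 fold change -0.07 to 0.30 and -0.18 to 0.30, adjusted p = 0.326 and 0.726). The responses differed by -1.83 and -1.29 on the log2 scale (adjusted p = 7.46e-07 and 8.09e-05 from limma).

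Untreated, the lines differed little in Polk, 0.808-fold in beta over alpha cells at 1449483_at (adjusted p = 0.00839 from limma) and 0.993-fold at 1419501_at (adjusted p = 0.957). RefSeq gives 2 start sites for Polk. The outer window, on the minus strand at chr13:96542530-96542829, is printed as read on that strand, with capitals for a GC box read as CCGCCC 105 bases before the start. The inner window, at chr13:96519138-96519437, holds a p53 half-site 231 bases before its start and is not printed. The p53 half-site occurs in 8.36% of all promoter windows.
Polk: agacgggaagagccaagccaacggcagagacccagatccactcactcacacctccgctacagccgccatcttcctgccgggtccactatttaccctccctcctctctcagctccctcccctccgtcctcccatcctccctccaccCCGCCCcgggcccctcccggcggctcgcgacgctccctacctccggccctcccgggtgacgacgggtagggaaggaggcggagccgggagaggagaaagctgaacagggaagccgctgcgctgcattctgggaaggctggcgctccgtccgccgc

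Rrm2b, the ribonucleotide reductase subunit that supplies nucleotides for repair outside S phase and a known p53 target in human cells, did not pass in the comparisons of GW8510 with DMSO or of the untreated lines. Group means ran from 507 ± 19.2 in beta cells with GW8510 to 576 ± 29.3 in alpha cells with GW8510. The alpha arrays read 555, 527 and 505 with DMSO and 567, 553 and 609 with GW8510, and the groups overlapped. The values were 1.09-fold in alpha cells (95% interval of the log2 fold change -0.01 to 0.26, adjusted p = 0.142 from limma) and 0.967-fold in beta cells (-0.18 to 0.09, adjusted p = 0.601). Between the treated lines the log2 level of beta minus alpha cells was -0.19 and passed (95% interval -0.32 to -0.05, adjusted p = 0.0217 from limma).

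Gadd45a, a stress-induced protein that binds PCNA and CDK1 and a known p53 target in human cells, fell in alpha cells to the level of beta cells. In alpha cells the DMSO arrays read 9787, 9585 and 8603 and the alpha GW8510 arrays 4348, 4432 and 4404. In beta cells the DMSO arrays read 4478, 4672 and 4285 and the beta GW8510 arrays 4538, 4379 and 4865. The untreated alpha arrays stood above all others, and the other 3 groups overlapped. The fall was to 0.472-fold (log2 change -1.08 with SE 0.06, limma adjusted p = 1.07e-07), against 1.03-fold in beta cells (95% interval of the log2 fold change -0.10 to 0.18, adjusted p = 0.713), and the responses differed by 1.12 (adjusted p = 3.94e-06). The difference between treated alpha cells and untreated beta cells did not pass (adjusted p = 0.744).

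The Gadd45a window is shown because its transcript had the largest fall of the 15 probe sets in alpha cells. It lies on the minus strand at chr6:67037358-67037657 and holds more of the searched letters than any other of the 8 windows. The octamer was found in no other of them, and the letters were chosen after the windows had been seen, so this rank is no test. Capitals mark the octamer at 97 and 70 bases before the start, CCAAT at 86, a GC box at 163 and a p53 half-site at 40. The octamer occurs in 1.74% of all promoter windows.
Gadd45a: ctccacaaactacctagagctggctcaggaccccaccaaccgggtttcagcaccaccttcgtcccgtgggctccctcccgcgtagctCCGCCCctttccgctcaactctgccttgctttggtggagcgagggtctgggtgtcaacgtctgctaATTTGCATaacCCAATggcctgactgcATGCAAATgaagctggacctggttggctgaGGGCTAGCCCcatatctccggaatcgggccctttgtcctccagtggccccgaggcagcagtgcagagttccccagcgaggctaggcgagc
The study's primer list also holds this pair for Gadd45a, and its text reports no RT-PCR value for the gene.
Gadd45a forward primer: cctggaggaagtgctcagcaag
Gadd45a reverse primer: gtcgtcttcgtcagcagccag

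With DMSO alone, 5 of 15 probe sets were higher and 4 lower in beta than in alpha cells, against 25.3% and 29.1% of all probe sets and 54.4% in either direction. The arrays of the lines did not overlap for 11 of 15 probe sets, against 64.5% of all. Chek1 at its brighter pair of probe sets (1.39-fold and 1.59-fold, adjusted p = 0.00118 and 7.32e-04 from limma), Chek2, Xpc (1.23-fold, adjusted p = 0.0127) and Ddb2 at 1425706_a_at (1.37-fold, adjusted p = 0.00313) were higher in beta cells. Atr (0.596-fold), Gadd45a (0.481-fold), Ercc5 and Polk at 1449483_at were lower. The Xpc call did not hold without alpha DMSO replicate 3 (adjusted p = 0.0541) or beta DMSO replicate 2 (0.0608), within 0.00269 to 0.0608. Ddb2 at 1436680_s_at was 1.24-fold (adjusted p = 0.0682 from limma) and passed without alpha GW8510 replicate 1 (0.0316) or beta GW8510 replicate 3 (0.043), within 0.00422 to 0.234.

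For each of the 10 genes at its brightest probe set, the genes with the most similar profile over the 12 arrays were listed by Pearson's r of the log2 intensity, as a description, since arrays of a group share their treatment. Polk was closest to Cd68 (r = 0.997), the macrophage marker that was higher in treated alpha cells, and to the signalling regulator Rgs5 (0.996). Ercc5 was closest to the nuclear importer Ipo4 (0.997) and to the mitochondrial peroxiredoxin Prdx3 (0.997). Gadd45a was closest to Islr (0.991) and to Egln1 (0.990), the oxygen-sensing prolyl hydroxylase. Egln1 means were 3745 and 1249 in alpha cells and 1201 and 1297 in beta cells. Islr was dim, with a mean of 33.7 in alpha cells with DMSO. Its means in the other groups lay at or near the lower limit, so Islr bears little on Gadd45a. Atr was closest to Hikeshi (0.985), a carrier of heat shock proteins into the nucleus, and Chek2 to Taf13 (0.991), a subunit of the general factor TFIID. Among the 10 genes themselves, Ddb2 was closest to Chek1 (0.972), each at a probe set whose design can bind other related transcripts. The lowest leading value was that of Rrm2b, with Fbxo22 (0.885).

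Other genes of checkpoint signalling and repair were read from lists that leave out the 10 genes, each gene at its brightest probe set, beside 40.7% of all 12255 genes called in alpha cells (19.8% higher, 20.9% lower) and 33.3% in beta cells (19.2% higher, 14.1% lower). The median log2 fold change of all genes was 0.03 in alpha cells and 0.07 in beta cells. The lists share some genes, so their counts are not fully separate. Prkdc is in checkpoint signalling and end joining, Exo1 in homologous recombination and mismatch repair, and Tyms in nucleotide supply and proliferation. Of 22 measured checkpoint signalling genes, 6 rose and 8 fell in alpha cells (median -0.04), and 5 rose and 7 fell in beta cells (median -0.05). H2ax, the histone variant phosphorylated at breaks, fell in both lines, from 823 to 339.96 in alpha cells (adjusted p = 5.91e-07 from limma) and from 2263 to 961 in beta cells (2.41e-06). Timeless, a replication fork protein that aids ATR signalling, fell to 0.482-fold in alpha cells and 0.667-fold in beta cells (adjusted p = 4.69e-08 and 1.37e-05), and its other probe set also fell in both lines. Prkdc, the kinase of end joining, had log2 fold changes of -0.91 and -0.82 (adjusted p = 9.14e-05 and 3.37e-04), and Etaa1, an ATR activator, fell in alpha cells (-0.83, adjusted p = 2.77e-04) and was at -0.34 in beta cells (adjusted p = 0.0667).

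Of 22 nucleotide excision repair genes, 6 rose and 7 fell in alpha cells (median 0.03), and 6 rose and 3 fell in beta cells. Gtf2h1, a subunit of the helicase complex TFIIH, rose in both lines (1.67-fold and 1.47-fold, adjusted p = 6.44e-06 and 1.28e-04 from limma). The ligase gene Lig1 and Rpa3, a subunit of the single-strand binding complex, fell in alpha cells (0.623-fold and 0.656-fold), and Rpa3 also fell in beta cells (0.780-fold). Xpa, the lesion-verifying protein, fell at its brightest probe set in alpha cells (-0.65 on the log2 scale, adjusted p = 1.60e-04), and its other probe sets, at -0.03 and -0.10, did not pass. Those other probe sets were dim, with group means of 23.5 to 33.3, so they bear little on Xpa. Of 12 translesion synthesis genes, 2 rose and 3 fell in alpha cells, and 1 rose and 3 fell in beta cells. Rev3l, the catalytic subunit of polymerase zeta, fell in both lines (-0.91 and -0.44, adjusted p = 2.01e-07 and 1.49e-04), with other probe sets at -0.30 and 0.03 in alpha cells. The other Rev3l probe sets were also dim, with group means of 27.1 to 40.3. Rev1, the scaffold of this group of polymerases, rose in alpha cells (0.35, adjusted p = 0.00429), fell in beta cells (-0.33, adjusted p = 0.00806), and differed in response (adjusted p = 0.001).

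Of 11 homologous recombination genes, 3 rose and 5 fell in alpha cells (median -0.25), and 4 rose and 3 fell in beta cells (median 0.22). Rad51c, which acts in the exchange of strands and in resolving its products, fell in both lines (0.393-fold and 0.602-fold, adjusted p = 2.65e-08 and 9.14e-06 from limma), and its other probe set also fell in both. Rad51d rose in both (1.71-fold and 1.52-fold). Rad51b fell to 0.500-fold in alpha cells and rose 3.74-fold in beta cells at its brightest probe set (adjusted p = 1.22e-05 and 2.79e-07), while its other probe set did not pass in either line (log2 fold changes 0.10 and 0.22). Of 5 end joining genes, 2 rose and 2 fell in alpha cells, where Xrcc5 and Xrcc6, the Ku subunits, rose (1.48-fold and 1.32-fold) and the ligase cofactor Xrcc4 fell (0.642-fold). In beta cells none of the 5 rose and 2 fell.

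Of 15 base excision repair genes, 3 rose and 5 fell in alpha cells, and 2 rose and 3 fell in beta cells. Ung, the uracil glycosylase, fell in both lines (0.529-fold and 0.578-fold, adjusted p = 1.35e-06 and 1.15e-05 from limma), and Aptx, which repairs aborted ligations, fell in alpha cells (0.520-fold) and was at 0.905-fold in beta cells (adjusted p = 0.466). Of 5 mismatch repair genes, 1 rose and 3 fell in alpha cells, and 3 fell in beta cells. Mlh3 fell to 0.424-fold in alpha cells (adjusted p = 3.13e-07), and Msh6, a mismatch recognition subunit, rose in alpha cells (1.53-fold) and fell in beta cells (0.808-fold, adjusted p = 7.58e-05 and 0.0129). Of 9 genes of the Fanconi anaemia pathway, which unhooks crosslinks, 1 rose and 5 fell in alpha cells (median -0.37), and 2 rose and 1 fell in beta cells (median 0.07). Fancl, its ubiquitin ligase, and Ube2t, its partner enzyme, fell in alpha cells (-0.82 and -0.61, adjusted p = 7.83e-06 and 1.29e-05) and had values of -0.15 and 0.02 in beta cells.

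The close relatives of Rrm2b and Gadd45a moved in different directions. Rrm2, the S phase subunit of ribonucleotide reductase, rose 1.37-fold in alpha cells (adjusted p = 1.51e-05 from limma) and was at 1.09-fold in beta cells (adjusted p = 0.0661). Of the other Rrm2 probe sets, which both rose in alpha cells, 1 was called higher in beta cells (0.26 on the log2 scale, adjusted p = 0.0157) and 1 was not (0.10, adjusted p = 0.246). Rrm1, the large subunit, was at -0.04 and -0.06 on the log2 scale (adjusted p = 0.49 and 0.35). Of 9 genes of nucleotide supply, 1 rose and 2 fell in alpha cells, and 4 fell in beta cells. Gadd45g fell in alpha cells (0.701-fold, adjusted p = 1.48e-04). Gadd45b, at its brightest probe set, fell in alpha cells (-0.47, adjusted p = 0.00739) and rose in beta cells (0.67, adjusted p = 0.00105), and its other probe sets did not pass in alpha cells (-0.13 and 0.03). In beta cells the first of these Gadd45b probe sets rose too (0.54, adjusted p = 8.66e-04) and the second did not pass (0.21, adjusted p = 0.165).

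Known p53 targets outside repair moved together in alpha cells. All 12 measured rose there (median 1.46), and in beta cells 6 rose and 1 fell (median 0.20), with 10 of 12 smaller in beta than in alpha cells by the test of the responses, against 11.7% of all genes. This p53 list was chosen with the results of these samples known, so its count is not independent evidence. Cyclin G1 (Ccng1) rose 7.10-fold in alpha cells and 1.30-fold in beta cells, and the cell cycle inhibitor gene Cdkn1a 4.98-fold and 1.39-fold (adjusted p = 4.53e-10 and 2.29e-04 from limma for Cdkn1a). Of 15 proliferation genes, 2 rose and 11 fell in alpha cells (median -0.39), and 3 rose and 7 fell in beta cells (median -0.20). Their part in the changes of checkpoint and repair genes was not tested.

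**Figure D3:**
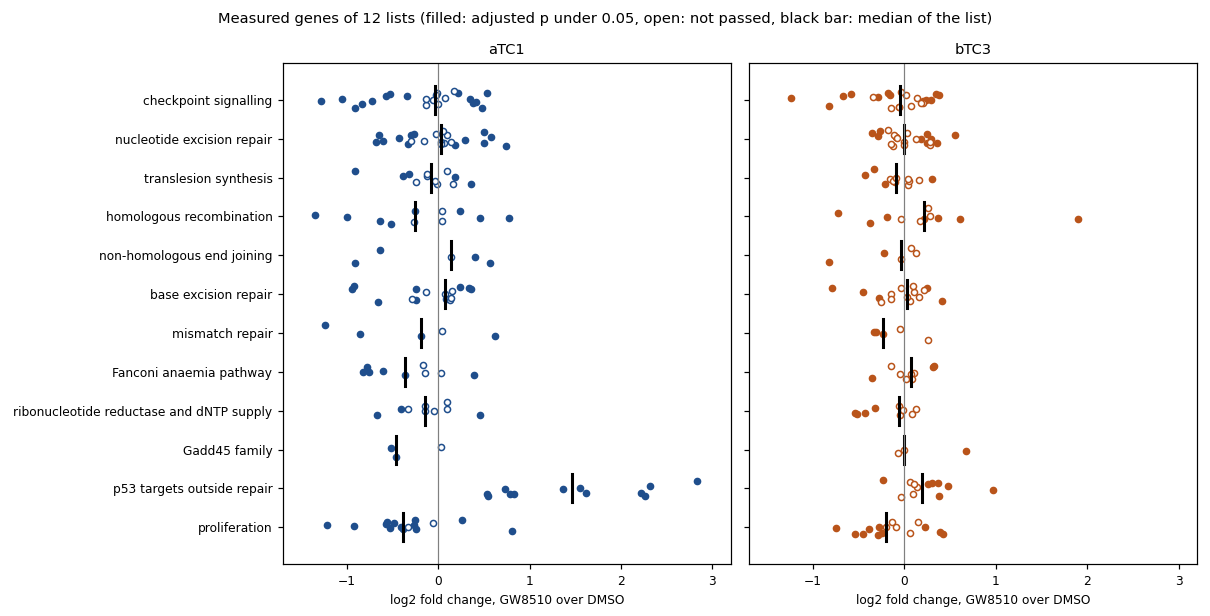
Log2 fold change of GW8510 over DMSO for every measured gene of 12 lists in the aTC1 alpha cells and the bTC3 beta cells, 1 point per gene at its brightest probe set, filled at adjusted p under 0.05, with the median of each list as a black bar. The medians of the repair lists lie between -0.37 and 0.22, whereas that of the p53 targets outside repair lies at 1.46 in alpha cells and 0.20 in beta cells.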

How the data were processed

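RNA of 12 cultures (4 groups of 3) was hybridised to Affymetrix Mouse Genome 430A arrays. The deposited intensity values are linear, and background correction and scaling were the authors'. The submitters' processing notes name RMA without a version. Array medians ran from 174 to 199.9, and the steps behind the values were not checked. All values fall within 20 to 20000, limits taken to be theirs. The number of arrays limits the precision (median SE 0.09 for the log2 fold change of GW8510 over DMSO in alpha cells).

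The log2 was taken with no pseudocount, and 4 group means were fitted with limma 3.58.1 in R 4.3.3 (lmFit, contrasts, eBayes, two-sided). Control probe sets (64) and 451 others at a bound on all arrays were left out. The study's methods name no test for the arrays. The fit was tested on simulated data. Symbols came from the platform annotation, updated by Entrez identifier, and 20393 probe sets carried 1 symbol.

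The genes and lists were chosen with earlier results of these data known. Named besides the 10 genes were, per list, up to 4 genes with the largest change called in either line, the Gadd45 and Rrm relatives, and the most similar profiles. Alternatives were normalization, filters, pseudocounts, weights, the prior, a replicate block and leaving out arrays. Promoter windows came from RefSeq (GRCm38.p6) and primers from the study's primer list.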

Additional observations from a re-analysis of the deposited data

Results flagged for a closer look

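The response to GW8510 differed between the lines, by a test of the difference itself in limma, at 7 of the 15 probe sets, where 25.3% of all probe sets did so. The difference is given as the beta response minus the alpha response on the log2 scale. It was -1.83 and -1.29 at the probe sets of Polk and -1.17 for Ercc5, whose rises in alpha cells had no called counterpart in beta cells. It was 1.12 for Gadd45a, 0.71 for Chek1 at 1449708_s_at, 0.70 for Atr and 0.56 for Ddb2 at 1436680_s_at, all lower with the compound in alpha cells. No explanation was tested.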

How the results depend on the processing

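Of the 30 probe set calls in the 4 comparisons, 24 held in every setting, and those lost are named with their values in the report. Beyond leaving out arrays, Atm in alpha cells (adjusted p = 0.0519) passed with 1 probe set per gene (0.0483), without the dimmest 25% of probe sets (0.0406), with array weights (0.00767) and with a pseudocount of 16 (0.0413). Ddb2 passed with array weights in beta cells at 1425706_a_at (0.0428), and in the difference at that probe set after quantile normalization (0.00719), without the dimmest probe sets (0.0414) and with weights (0.0182). Its 1436680_s_at passed between the untreated lines with an intensity trend and robust prior (0.0437) and with weights (0.00422). The count higher in beta than alpha cells with DMSO was 3 with 1 probe set per gene, against 5, as that table holds fewer probe sets. In beta cells, leaving out arrays gave 1 to 2 higher and 0 to 2 lower.

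Same-numbered arrays did not deviate together (median r = 0.0036 over 18 pairs, against 0.0082 over 36 others), so the arrays were not treated as paired. With a replicate block 1 probe set was lower in beta cells, against 2, since Atm lost its call (adjusted p = 0.068). Xpc in alpha cells lost its call (0.0506), and the difference of Ddb2 at 1425706_a_at passed (0.0447). No other call on the 10 genes changed.

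Directions turned for 44 of 1202 values, none of them called (log2 fold change, range on leaving out each array, other settings). At 1420031_at of Chek1 these were alpha cells (-0.013, -0.0637 to 0.0471, array weights 0.0204), beta cells (0.0186, -0.0856 to 0.13, quantile -0.0459, weights -0.0244), the difference (0.0316, -0.0726 to 0.143, weights -0.0448) and the untreated lines (-0.00329, -0.114 to 0.0917, quantile 0.0379). At 1420032_at of Chek1 they were alpha cells (-0.0636, -0.167 to 0.00975) and the untreated lines (0.0532, -0.0131 to 0.0995). For Polk at 1419501_at they were beta cells (0.0588, -0.0178 to 0.117, quantile -0.0221) and the untreated lines (-0.0105, -0.0836 to 0.0925, quantile 0.037, weights 0.0253). In beta cells they were also Ddb2 at 1436680_s_at (0.0943, -0.0287 to 0.167, weights -0.0143) and Gadd45a (0.0363, -0.00576 to 0.0702, weights -0.00285). In the difference they were Chek2 (-0.000371, -0.0451 to 0.0384, weights 0.0586, pseudocount of 1 0.000879, pseudocount of 16 0.018), Atm (-0.0198, -0.0768 to 0.017) and Xpc (-0.0607, -0.125 to 0.0187), and between the untreated lines Rrm2b (-0.0137, -0.0463 to 0.0215, quantile 0.011).

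Over all probe sets, 18.0% were higher and 13.4% lower in beta cells. These were 14.5% and 15.4% without beta GW8510 replicate 3, and 16.6% and 17.3% after quantile normalization. With array weights 17.4% were lower in the difference, against 10.5%. At 1420031_at of Chek1, with group means of 23.6 to 24.2, the lower limit of 20 bounds the fall that could be read.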
